A study of Rattus norvegicus with 10 samples.

Results

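The frontal cortex arrays of 10 rats differed widely in Drd1, the gene of the dopamine D1 receptor, and the rats at the ends of that range are compared here. The rats were chosen by the level of the brighter Drd1 probe set: those above 8 on the log2 scale formed the high-Drd1 group (rats 4, 7 and 10), and those below 6.5 the low-Drd1 group (rats 1, 2, 3, 6 and 9). Together these are 8 of the 10 rats, and rats 5 and 8, between the limits, were left out of both groups. All rats of both groups were male, of the inbred Lewis strain, weighed 200 to 250 g, received no treatment and were housed singly. No age is stated in the labels. They came from a set of 40 rats scored for startle, prepulse inhibition, locomotion and sugar feeding, and were killed 6 days after the last test. The tissue was frontal areas Fr1 and Fr2, cut without the olfactory bulb, with 1 array per rat. The study asked how mRNA levels in the brain go with behaviour among rats of 1 strain.

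Drd1 was 9.07, 9.60 and 8.38 in high-Drd1 rats 4, 7 and 10, against 6.23, 5.91, 5.79, 6.28 and 5.98 in low-Drd1 rats 1, 2, 3, 6 and 9. Rats 5 and 8 had 7.25 and 7.73. The high-Drd1 rat nearest its limit was rat 10, the low-Drd1 rat nearest its limit was rat 6, and both left-out rats lay clear of these. A second, dimmer Drd1 probe set had 5.29, 5.75 and 3.65 in the high-Drd1 rats, against 3.08 to 3.29 in the low-Drd1 rats. The groups did not overlap there either, but left-out rat 5, at 3.72, lay above rat 10, and rat 8 had 3.36. Rat 10 and all low-Drd1 rats were there under 3.99, the lowest mean that the filter on low values kept. Drd1 chose the groups and is not counted below.

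Dopamine receptors are G-protein-coupled: D1 receptors raise cyclic AMP and D2 receptors lower it. In the striatum, which lies beneath and behind the frontal cortex, the projection neurons are GABAergic and carry these receptors at high levels. Those of the direct pathway have D1, dynorphin and substance P, and those of the indirect pathway have D2, an adenosine receptor (Adora2a) and enkephalin. The cortex holds fewer dopamine receptors, and its own layers and interneurons also use several of the same genes, among them Penk, Pdyn, Foxp2 and Bcl11b.

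The groups were cut from a value on the same arrays, so the differences in other genes are described and carry no p-value. A probe set or gene is counted as higher or lower where all 3 high-Drd1 rats lay on 1 side of all 5 low-Drd1 rats and the group means differed by at least 0.5 log2. A gene is represented by its probe set of highest mean. By this count 52 of 8482 genes (0.613%) were higher and 17 (0.2%) lower in high-Drd1 rats. The group on the low side had a mean under the filter level of 3.99 in 2 of the 52 and 1 of the 17. Leaving out rat 10 gave 103 higher and 27 lower genes and leaving out rat 6 gave 87 and 34, while without rats 4, 7 or 9 the lower genes numbered 32, 30 and 28. Regardless of size, the groups were apart upward in 330 genes (3.89%) and downward in 195 (2.3%). The median difference over all 8482 genes was 0.02 log2, and 57.7% of them had a positive difference. Levels and differences below are on the log2 scale, and each difference is the high-Drd1 mean minus the low-Drd1 mean. In tissue pieces, more cells of a type and more RNA per cell cannot be told apart.

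**Figure D1:**
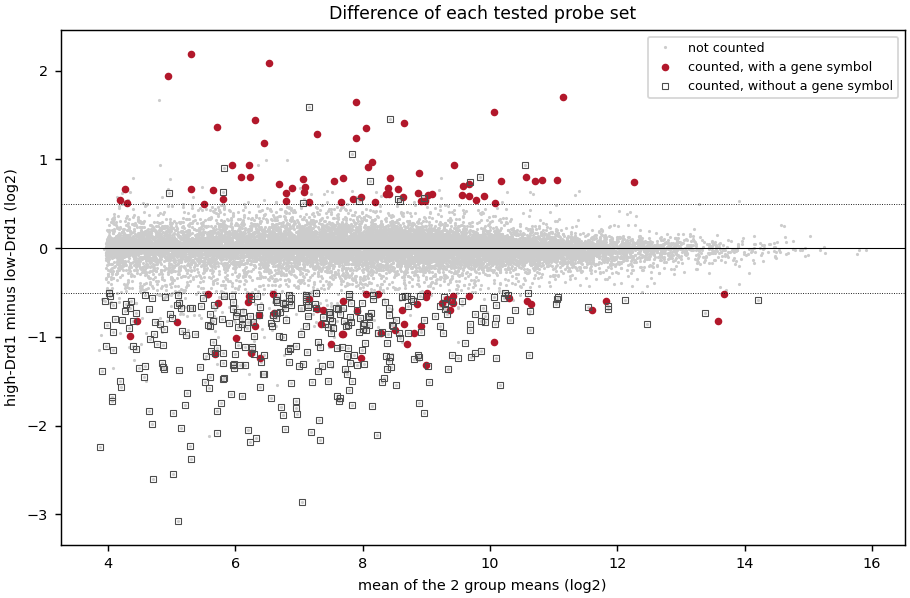
Difference between the group means (high-Drd1 minus low-Drd1 rats, log2) against the mean of the 2 group means (log2) for every tested probe set except Drd1, with filled red points for named and open squares for unnamed probe sets that were counted as higher or lower. The lower points number 385 and are mostly probe sets without a gene symbol, and the higher points number 81 and are mostly named genes.

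Genes of striatal projection neurons led the higher genes. Drd2, the dopamine D2 receptor, had 6.16, 7.57 and 5.50 in high-Drd1 rats 4, 7 and 10, against 4.10, 4.05, 4.71, 4.13 and 4.08 in low-Drd1 rats 1, 2, 3, 6 and 9, a difference of 2.19. The low-Drd1 rats other than rat 3 were near the filter level of 3.99, so background limits the size of this difference. The lowest high-Drd1 rat stood 0.79 above the highest low-Drd1 rat, rat 3. The list of striatal dopamine receptor and cyclic AMP signalling genes was, like the others, chosen with earlier results of these data known. Of its 14 tested members, 10 were higher, 0 were lower, and the median difference was 0.74. All 14 differences were positive. Of all genes, 0.613% were higher and 57.7% had a positive difference.

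Gng7, the G protein gamma subunit that couples striatal receptors to adenylyl cyclase, had 8.56, 9.18 and 8.40 in the high-Drd1 rats, against 7.21, 7.06, 6.66, 7.58 and 6.84 in the low-Drd1 rats, a difference of 1.64. Ppp1r1b encodes DARPP-32, the phosphatase inhibitor switched on by protein kinase A after D1 receptor stimulation. It had 10.86, 11.26 and 10.39 in the high-Drd1 rats, against 9.17, 9.26, 9.17, 9.63 and 9.27 in the low-Drd1 rats, a difference of 1.54 (2.91-fold). Neither gene overlapped between the groups, and rat 7 was highest in both. Rasgrp2, an exchange factor for the small GTPase Rap1, had 6.38, 7.27 and 6.43 in high-Drd1 rats and 5.65 to 5.81 in low-Drd1 rats, a difference of 0.94.

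The remaining members of this pathway that were higher differed by less. Pde10a, the phosphodiesterase that breaks down cyclic nucleotides in striatal neurons, had 12.53, 13.06 and 12.32 in high-Drd1 rats and 11.67 to 12.05 in low-Drd1 rats, a difference of 0.75. The lowest high-Drd1 rat for Pde10a was rat 10, 0.27 above the highest low-Drd1 rat. Rgs9, which shortens G protein signals, had 4.32, 5.06 and 4.32 in high-Drd1 rats and 4.03 to 4.07 in low-Drd1 rats. The difference was 0.51, or 0.26 without rat 7. The low-Drd1 rats were near the filter level of 3.99, so background limits the size of this difference. Another Rgs9 probe set, under the filter, differed by 0.04. Rasd2 (Rhes, difference 0.80), Adcy5 (the striatal adenylyl cyclase, 0.75), Pde1b (a calmodulin-dependent phosphodiesterase, 0.73) and Gnal (the stimulatory G protein Golf, 0.67) complete the 10 and were named after their values were seen.

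Members at the bottom of the scale fell into separate patterns. Adora2a, the adenosine receptor of indirect pathway neurons, was under the filter on low values, with 4.48, 6.48 and 2.73 in high-Drd1 rats and 2.09 to 2.20 in low-Drd1 rats. Drd3, Drd4 and Drd5, the other dopamine receptors, had means of 2.27, 3.07 and 2.17 in high-Drd1 rats and of 2.26, 3.07 and 2.17 in low-Drd1 rats. So Adora2a was apart between the groups like Drd2, and the other dopamine receptors were at background in both.

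**Figure D2:**
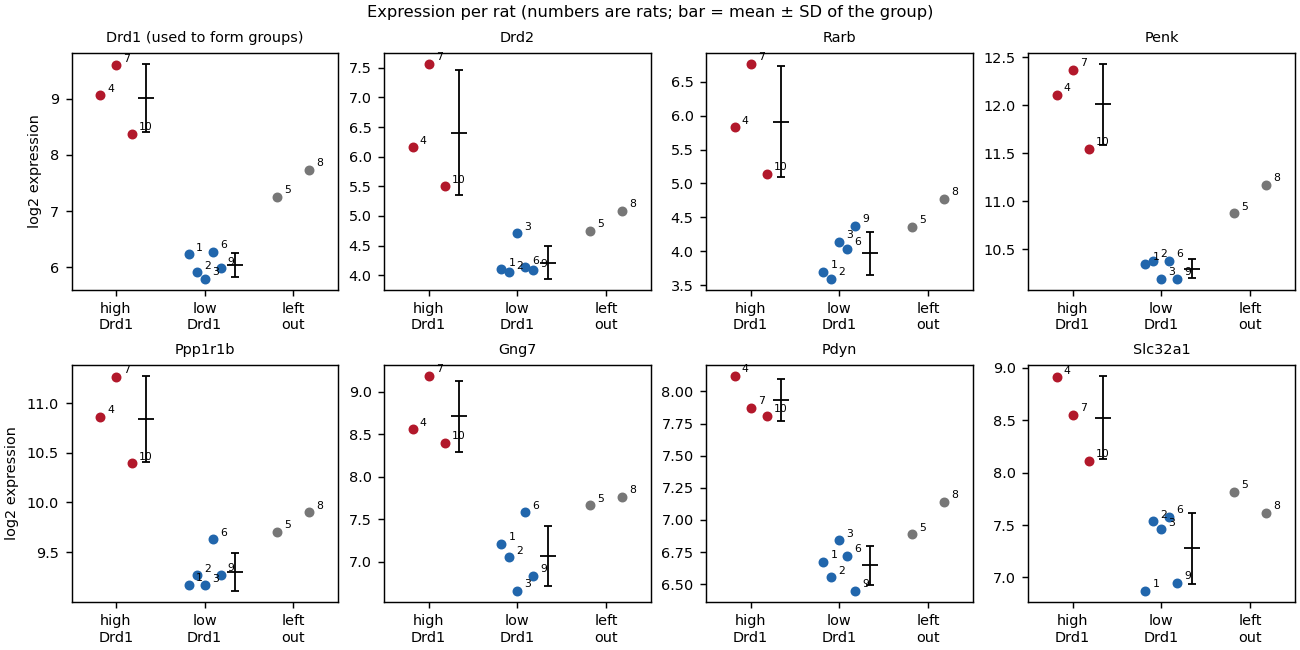
Log2 level of Drd1 and 7 other genes in each rat, with high-Drd1 rats at the left, low-Drd1 rats in the middle and the left-out rats 5 and 8 at the right. Each point is 1 rat and bars give the mean ± SD of the group. No high-Drd1 rat overlaps a low-Drd1 rat in any panel, and the left-out rats lie between the group means in every panel.

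Neuropeptide precursors were measured next. Penk, the enkephalin precursor of the indirect pathway, had 12.11, 12.37 and 11.55 in the high-Drd1 rats, against 10.35, 10.38, 10.20, 10.38 and 10.19 in the low-Drd1 rats, a difference of 1.71 (3.27-fold). The low-Drd1 rats lay within 0.19 of each other, and the lowest high-Drd1 rat was 1.17 above them. Pdyn, the dynorphin precursor of the direct pathway, had 8.12, 7.87 and 7.81 in the high-Drd1 rats, against 6.67, 6.55, 6.84, 6.72 and 6.45 in the low-Drd1 rats, a difference of 1.29. Among the 12 genes of largest positive difference, Pdyn had the smallest spread within the high-Drd1 group (SD 0.16), and rat 4, not rat 7, was its highest rat.

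Tac1, the substance P precursor of the direct pathway, was under the filter, with 5.41, 4.74 and 4.25 in high-Drd1 rats and 2.33 to 2.66 in low-Drd1 rats, and likewise highest in rat 4. Cartpt (CART peptide precursor) and Npy (neuropeptide Y, of interneurons) were apart by less than the 0.5 needed to count, at 0.39 and 0.21. Of the 5 tested members of this list 2 were higher, against 0.613% of all genes, and 0 lower, with a median difference of 0.39. The indirect pathway list had 2 tested members of 6 on the array, Drd2 and Penk, both higher. Its median difference was 1.95, but 0.95 with no filter. The direct pathway list had 4 tested members, of which Pdyn was higher and 3 were not counted: Chrm4 (muscarinic M4 receptor) differed by 0.17, Eya1 by −0.11 and Sfxn1 by −0.04.

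Transcription factors of striatal neurons formed a further group. Rarb, the retinoic acid receptor beta, had 5.83, 6.76 and 5.14 in the high-Drd1 rats, against 3.70, 3.59, 4.14, 4.03 and 4.37 in the low-Drd1 rats, a difference of 1.94. Its low-Drd1 mean, 3.97, was under the filter level, so Rarb passed the filter through the high-Drd1 rats and background limits the size of its difference. Rxrg, the retinoid X receptor gamma that pairs with it, had 6.23, 6.89 and 6.07 in the high-Drd1 rats, against 5.06, 4.65, 5.12, 5.21 and 5.11 in the low-Drd1 rats, a difference of 1.36. Both retinoid receptors were highest in rat 7, as were most of the higher genes, and lowest among high-Drd1 rats in rat 10.

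Foxp2, a forkhead repressor of striatum and deep cortical layers, had 9.26, 9.68 and 9.04 in high-Drd1 rats and 8.56 to 8.90 in low-Drd1 rats, a difference of 0.60. Bcl11b (Ctip2), which striatal projection neurons share with layer 5 cortical neurons, was apart by 0.41, with 12.24 to 12.60 in high-Drd1 rats and 11.87 to 12.22 in low-Drd1 rats. Foxp1 and Meis2, abundant in both tissues, overlapped between the groups and differed by 0.25 and 0.13. Isl1, a factor of developing direct pathway neurons, was near background with a mean of 2.73 in high-Drd1 rats and 2.73 in low-Drd1 rats, and Ebf1 was as dim. Of 10 tested striatal factors, 3 were higher (Rarb, Rxrg and Foxp2) and 0 lower, with a median of 0.37. Rarb is among the 3 although it passed the filter through the high-Drd1 rats. Over all genes, 0.613% were higher.

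The other genes of retinoic acid signalling were not counted in either direction. Of 9 tested, Rarb and Rxrg were higher, against 0.613% of all genes, 0 were lower, and the median was 0.03. In the upper 25% of probe sets by mean, the list's value was −0.30, that of Cyp26b1 alone, so it does not describe the list as a whole. As given above, Rarb passed the filter through the high-Drd1 rats. Cyp26b1, which breaks down retinoic acid, had a mean of 9.81 in high-Drd1 rats and 10.11 in low-Drd1 rats. Aldh1a2, which makes it and is abundant in meninges, had 7.92 in high-Drd1 rats and 8.09 in low-Drd1 rats. Both overlapped between the groups.

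Rarb is a textbook retinoic acid target through a direct repeat in its own promoter, so that stretch is shown. The letters GGTTCA, followed after any 5 bases by AGTTCA, were searched on both strands in windows from 250 bases before to 50 after each gene's start (RefSeq, GRCr8), and 2 of 27457 windows (0.00728%) held them. The stretch around the match in Rarb, on the plus strand at chr15:11336410-11336439, has the repeat in capitals, beginning 24 bases past the annotated start of the gene.
Rarb: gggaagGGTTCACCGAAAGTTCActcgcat
Of the 52 higher genes, 38 had a promoter window, and Rarb was the 1 of them with this repeat. The shorter core AGGTCA, which many nuclear receptors bind and which does not occur within the repeat as spelled, was in 2 of the 38 (5.26%, Mal and Pcp4l1) and in 15.7% of all windows. TGACG, the core of the cyclic AMP response element, was in 4 of the 38 (10.5%, Pde10a, Strn, Chn2 and Slc32a1), against 22.0% of all windows. The full element TGACGTCA, of which TGACG is a part, was in 0 of the 38 and 1.91% of all. The windows thus held neither core at a share above that of all genes, and a match is a description of letters only.

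Several of the 12 genes of largest positive difference lie outside the receptor, peptide and factor lists. Pcp4l1, a small relative of the calmodulin regulator Pcp4, had 7.72, 8.44 and 6.59 in the high-Drd1 rats, against 5.27, 5.36, 5.64, 5.48 and 5.72 in the low-Drd1 rats, a difference of 2.09, and a second Pcp4l1 probe set differed by 1.45. Scn4b, a sodium channel beta subunit, had 9.57, 9.65 and 8.86 in high-Drd1 rats and 7.31 to 8.38 in low-Drd1 rats, a difference of 1.41. Pbx3, a homeobox partner of Meis factors, had 8.67, 9.46 and 8.09 in high-Drd1 rats and 6.91 to 7.69 in low-Drd1 rats, a difference of 1.36. In all 3, rat 7 was the highest and rat 10 the lowest of the high-Drd1 rats, and rat 7 was highest in 43 of the 52 higher genes.

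Slc32a1, the vesicular GABA transporter, had 8.91, 8.55 and 8.12 in high-Drd1 rats and 6.87 to 7.58 in low-Drd1 rats, a difference of 1.25. Tgfa, an epidermal growth factor receptor ligand, had 7.35, 7.28 and 6.51 in high-Drd1 rats and 5.09 to 6.35 in low-Drd1 rats, a difference of 1.18 with a gap of 0.16 between the groups. Both were highest in rat 4. The gene lists held 21 of the 52 higher genes. Among the 31 others, named after their values were seen, were Chn2 (a Rac-inactivating chimaerin, 0.97), Htr2c (serotonin 2C receptor, 0.94), Kcnip2 (a potassium channel partner, 0.57) and Strn (striatin, a scaffold, 0.51).

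**Figure D3:**
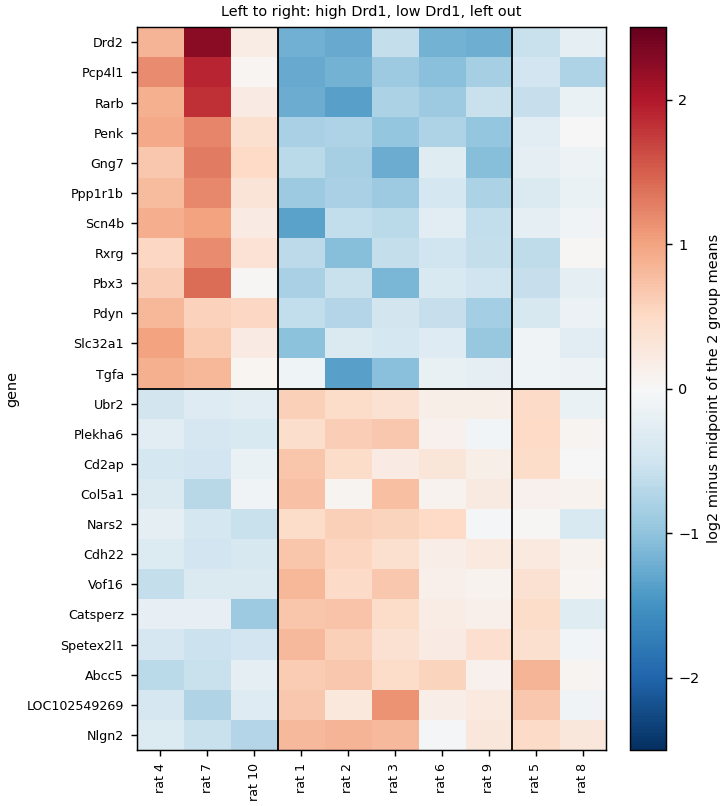
Level of the 12 genes of largest positive and the 12 of largest negative difference in each rat, as log2 distance from the midpoint of the 2 group means, with high-Drd1 rats at the left, low-Drd1 rats next and rats 5 and 8 at the right. Most of the upper genes are strongest in rat 7, and rats 5 and 8 take intermediate values in most genes.

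The high-Drd1 rats were not alike in degree. Rat 7 was the highest of the 3 in 43 of the 52 higher genes, rat 4 in 8 and rat 10 in 1 (Syngr2). The low-Drd1 mean of Syngr2, 3.92, was under the filter level of 3.99. Rat 7 also had the highest Drd1. The left-out rats gave values that the grouping did not use. Rats 5 and 8 both lay between the group means in 42 of the 52 higher genes and in 10 of the 17 lower genes, against 15.1% of all genes. Because these genes were chosen for a wide gap between the means, this share is a description. Rat 8, the higher of these rats in Drd1, was nearer the high-Drd1 mean than rat 5 in 34 of the 52 higher genes and in 17 of the 17 lower genes, and rat 8 was above rat 5 in 55.4% of all genes.

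Myelin genes were the other group on the high side. Mal, a proteolipid of compact myelin, had 11.08, 11.20 and 10.99 in the high-Drd1 rats, against 10.45, 10.28, 9.91, 10.83 and 10.20 in the low-Drd1 rats, a difference of 0.76. Mag, the myelin-associated glycoprotein, had 9.93, 10.05 and 9.83 in the high-Drd1 rats, against 9.13, 9.12, 8.76, 9.73 and 9.43 in the low-Drd1 rats, a difference of 0.70. In both genes rat 6 was the low-Drd1 rat nearest the high-Drd1 group and rat 3 the farthest.

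Of 18 tested myelin and oligodendrocyte genes, 5 were higher, against 0.613% of all genes, and 0 lower. All 18 differences were positive, against 57.7% of all genes, and the median was 0.57. Besides Mal and Mag, the 5 were Opalin (0.68), Mog (0.59) and Fa2h, which makes hydroxylated myelin lipids (0.54). Ugt8, which makes galactocerebroside, differed by 0.79 and Mbp by 0.26, and both overlapped because rat 6 had 9.57 and 14.73, within the high-Drd1 range. Other tested Mbp probe sets differed by 0.54 and −0.17, both with overlap. The list's mean level was 10.15 to 10.38 in high-Drd1 rats and 9.39 to 10.16 in low-Drd1 rats. Its part in the other differences was not tested, and the 4 tested oligodendrocyte precursor genes had a median of 0.00.

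**Figure D4:**
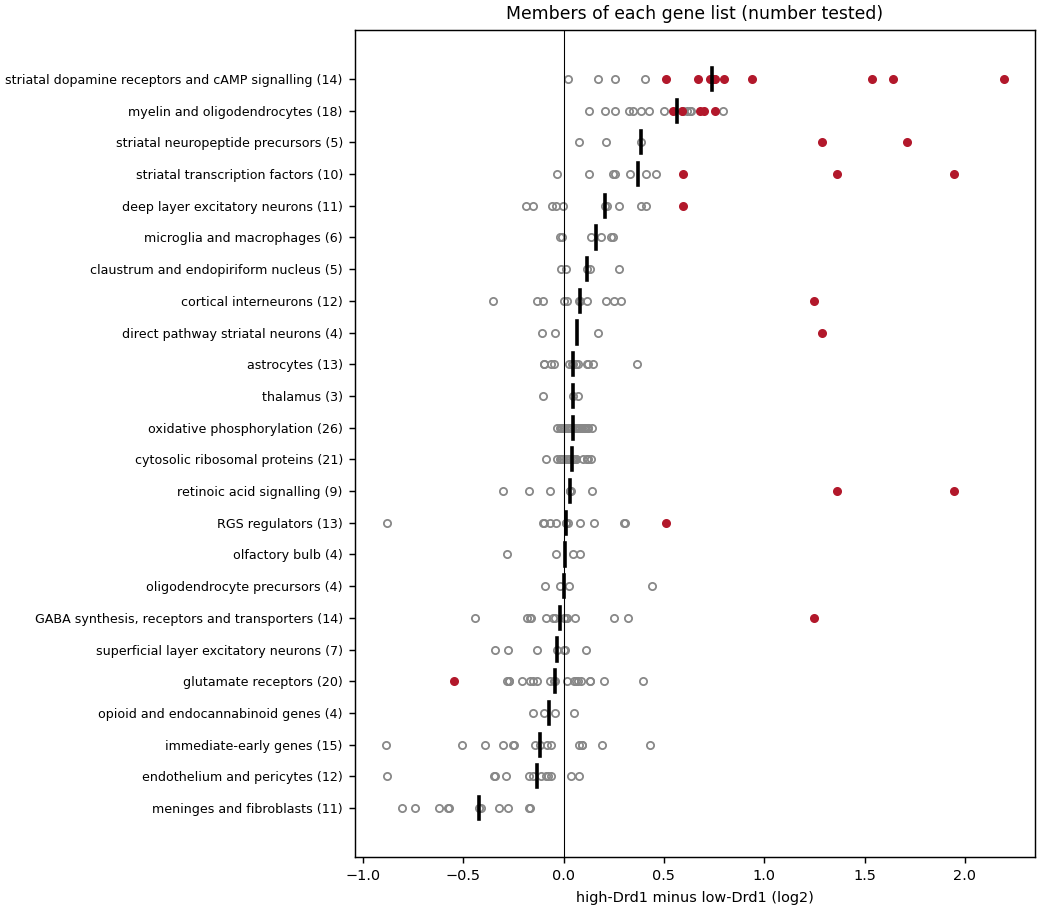
Difference between the group means (high-Drd1 minus low-Drd1 rats, log2) for each tested member of each gene list with 3 or more tested members, with members counted as higher or lower in red and the list median as a bar. The medians of the striatal receptor, peptide and transcription factor lists and of the myelin list lie right of 0. The direct pathway list has a median of 0.06, with 2 positive and 2 negative members. The meningeal list lies left of 0.

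Genes of the cortical layers and interneurons included 2 that were counted, Foxp2 and Slc32a1, which striatal neurons share. The 7 tested superficial layer genes had 0 higher, 0 lower and a median of −0.03, with Rorb, a layer 4 factor, at 8.88 in high-Drd1 rats and 9.22 in low-Drd1 rats on average. Of 11 deep layer genes, Foxp2 alone was higher and 3 were apart upward at any size, against 3.89% of all genes. Their median was 0.21, but 0.05 without rat 4, 0.08 without rat 1 and 0.01 with no filter. Of 12 cortical interneuron genes, Slc32a1 was higher, 4 were apart upward at any size, against 3.89% of all genes, and the median was 0.08. Gad1, which makes GABA, had 12.17, 12.18 and 12.04 in high-Drd1 rats and 11.72 to 12.03 in low-Drd1 rats, a difference of 0.25 with a gap of 0.004 between the groups. Reln, of layer 1 interneurons, differed by −0.35 and overlapped.

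Genes of neighbouring regions and of other brain cells were read for the same rats. The claustrum (5 tested genes), olfactory bulb (4), septum (2) and thalamus (3) lists had 0 members counted and medians of 0.12, 0.00, −0.04 and 0.05. Of the cholinergic interneuron and choroid plexus lists, 0 members passed the filter, and of the 8 dopaminergic neuron genes on the array 1 did, Nr4a2, which cortical neurons also express. Nr4a2 had a mean of 8.31 in high-Drd1 rats and 8.04 in low-Drd1 rats and overlapped. Chat had a mean of 2.47 in high-Drd1 rats and 2.46 in low-Drd1 rats, Th had 1.97 in both, and Ttr had 3.90 in high-Drd1 rats and 3.91 in low-Drd1 rats. Chat, Th and Ttr were at background in both groups. Astrocyte genes (13 tested) had a median of 0.05, microglial genes (6) 0.16 and endothelial and pericyte genes (12) −0.13, with 0 counted in each.

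The meningeal and fibroblast list had 11 tested members, all lower on average in the high-Drd1 rats, with a median of −0.42, but 0 were counted, and without rats 3 and 9 the median was −0.05. Col1a2, a fibrillar collagen chain, had 8.21, 7.88 and 8.07 in the high-Drd1 rats, against 8.37, 8.33, 9.29, 7.33 and 9.82 in the low-Drd1 rats. Rats 3 and 9 were high and rat 6 was lower than any high-Drd1 rat. The list's mean level was 8.08 to 8.20 in high-Drd1 rats and 7.88 to 9.30 in low-Drd1 rats, and its part in the other differences was not tested.

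Of 15 activity-dependent immediate-early genes, 0 were counted and the median was −0.12. The scaffold gene Homer1 alone was apart, by −0.25. Fos had 9.59, 8.91 and 4.91 in the high-Drd1 rats, against 8.06 to 9.60 in the low-Drd1 rats, with rat 10 the lowest of all. Arc, a synaptic effector, averaged 9.58 ± 0.77 in high-Drd1 rats and 9.50 ± 1.06 in low-Drd1 rats (SD, n = 3 and 5), and Egr1 averaged 11.87 ± 0.42 in high-Drd1 rats and 12.26 ± 0.16 in low-Drd1 rats. The lists of ribosomal proteins (21 tested) and of oxidative phosphorylation (26) had medians of 0.04 and 0.05 and 0 counted.

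The 17 lower genes were of mixed kinds, and the gene lists held 1 of them, Grin2b. Nlgn2, the adhesion protein of inhibitory synapses, had 8.36, 8.15 and 7.96 in the high-Drd1 rats, against 9.51, 9.55, 9.51, 8.68 and 8.98 in the low-Drd1 rats, a difference of −1.09. A second Nlgn2 probe set differed by 0.28 in the other direction, with overlap. It was near the filter level of 3.99, with means of 4.22 in high-Drd1 and 3.94 in low-Drd1 rats. The Nlgn2 average below includes this dim probe set. Cdh22, a cadherin, had 13.23, 13.10 and 13.18 in the high-Drd1 rats, against 14.28, 14.12, 13.98, 13.76 and 13.83 in the low-Drd1 rats, a difference of −0.82, and its second probe set differed by 0.02. Abcc5, an exporter of organic anions, differed by −0.97 and its second probe set by −0.07. Averaged over the tested probe sets of each gene, the differences were −0.40 for Nlgn2, −0.40 for Cdh22 and −0.52 for Abcc5. They were −0.40 for Col5a1, −0.28 for Ubr2 and −0.20 for Plekha6, so of all these Abcc5 alone stayed past 0.5.

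Other probe sets of the same genes were read as well. Among the 12 of largest negative difference, 6 genes had 8 other tested probe sets, of which 4 had the same sign and 0 differed by 0.5 or more. Among all 52 higher genes, 10 had 11 other tested probe sets, of which 11 had the same sign and 6 differed by 0.5 or more. Among all 17 lower genes, 9 had 13 other tested probe sets, of which 9 had the same sign and 1 differed by 0.5 or more. Col5a1 (a fibrillar collagen, −0.75), Cd2ap (−0.73), Plekha6 (−0.71) and Ubr2 (a ubiquitin ligase, −0.70) were among the 12. So were Nars2 (mitochondrial asparaginyl-tRNA synthetase, −0.82), Spetex2l1 (−0.96), Catsperz (−0.87), Vof16 (−0.87) and LOC102549269 (−0.99). The high-Drd1 mean of LOC102549269, 3.86, was under the filter level of 3.99. It passed the filter through rats outside the high-Drd1 group, so background limits the size of its difference.

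Grin2b, the NMDA receptor subunit 2B, had 8.97, 8.43 and 8.77 in high-Drd1 rats and 8.99 to 9.48 in low-Drd1 rats, a difference of −0.55 with a gap of 0.02. Its second tested probe set differed by −0.11 and overlapped, and the mean over both differed by −0.33, under the 0.5 needed to count. It was the 1 counted of 20 tested glutamate receptor genes, whose median was −0.04, while 0.2% of all genes were lower. Gria3, of the same list, was also apart but by less than needed to count, at −0.28. Its second tested probe set was apart by −0.69, and the mean over both differed by −0.49. Snhg11 and Miat, long noncoding RNAs among the 17 lower genes, were named after their values were seen. Snhg11 had 13.48, 13.45 and 13.33 in high-Drd1 rats and 13.80 to 14.16 in low-Drd1 rats, a difference of −0.52, and its 3 other tested probe sets differed by −0.59, −0.49 and −0.12, the last with overlap. Miat had 9.45, 9.35 and 9.39 in high-Drd1 rats and 9.62 to 10.21 in low-Drd1 rats, a difference of −0.54.

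Over all 15520 probe sets, named or not, 81 (0.522%) were higher and 385 (2.48%) lower. Probe sets without a gene symbol made up 23.7% of those tested, 18.5% of the higher and 86.5% of the lower ones. Of 3672 such probe sets, 15 (0.408%) were higher and 333 (9.07%) lower. The 333 had a median difference of −0.90 and reached −3.08, farther from 0 than any named gene, and 142 of them differed by 1 or more. The mean level of all 3672 was 7.53, 7.55 and 7.50 in high-Drd1 rats 4, 7 and 10, against 7.76, 7.74, 7.63, 7.62 and 7.62 in low-Drd1 rats 1, 2, 3, 6 and 9, so the groups did not overlap. With limma's adjusted p under 0.05 in place of groups apart, as a description only, 13 probe sets (0.0838%) were higher and 35 (0.226%) lower by at least 0.5. The mean of probe sets with 1 symbol was 8.21 to 8.27 in high-Drd1 rats and 8.15 to 8.27 in low-Drd1 rats.

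Measures of RNA and array quality overlapped between the groups. The 3′ minus 5′ signal of beta-actin was 2.22, 2.59 and 2.36 in high-Drd1 rats and 2.29 to 2.38 in low-Drd1 rats, with rat 7 highest and rat 4 lowest of the 8. The GAPDH value was 0.06, 0.32 and 0.15 in high-Drd1 rats and 0.14 to 0.25 in low-Drd1 rats, with the same rats at the ends. The hybridisation spike-ins averaged 11.97, 11.89 and 11.23 in high-Drd1 rats and 11.63 to 12.14 in low-Drd1 rats, with rat 10 the lowest. Their part in the gene differences was not tested.

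The behaviour scores, which the grouping did not use, were compared between the same rats, with no unit given in the labels. Prepulse inhibition, the damping of a startle by a weaker sound just before it, was 42.5, 26.7 and 25.3 in high-Drd1 rats 4, 7 and 10, against 6.80, 10.7, 18.4, 25.4 and 37.4 in low-Drd1 rats 1, 2, 3, 6 and 9. The means were 31.5 ± 9.58 and 19.7 ± 12.2 (SD, n = 3 high-Drd1 and 5 low-Drd1 rats), a difference of 11.8 with a two-sided exact permutation p of 0.214. Low-Drd1 rats 6 and 9 lay within the high-Drd1 range.

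Startle averaged 736 ± 217 in high-Drd1 rats and 645 ± 259 in low-Drd1 rats (exact permutation p = 0.571). Locomotion averaged 13701 ± 4283 in high-Drd1 rats and 12988 ± 2736 in low-Drd1 rats (exact permutation p = 0.821). Sugar feeding averaged 1.60 ± 0.51 in high-Drd1 rats and 1.44 ± 0.61 in low-Drd1 rats (exact permutation p = 0.714). All groups overlapped, and after Benjamini-Hochberg adjustment over the 4 scores each exact p was 0.821. With 56 possible splits of 3 against 5 rats, 0.0357 is the smallest p that can occur. The plus maze score was 20.2, 0 and 3.30 in the high-Drd1 rats and 12.1 and 0 in the 2 low-Drd1 rats that had one.

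**Figure D5:**
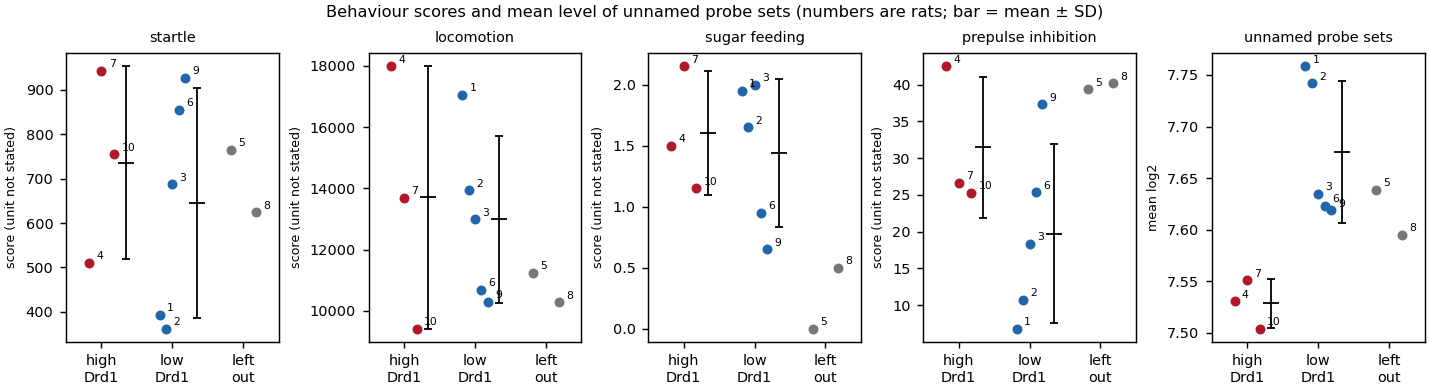
The 4 behaviour scores (units not given) and the mean log2 level of probe sets without a gene symbol in each rat, with high-Drd1 rats left of low-Drd1 rats and the left-out rats at the right. Points are rats and bars give the mean ± SD of the group. The scores overlap between the groups, while the mean of the probe sets without a symbol does not.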

How the data were processed

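The deposited values were log2 expression summaries of 31099 probe sets on 10 Affymetrix rat arrays, from 0.24 to 16.2, made by the authors with GCRMA under R 2.6.2, per the submitters' processing notes. GCRMA corrects background from probe sequence, normalises by quantiles and summarises probes. The sources used here give no version of GCRMA. Quantile normalisation sets a difference relative to the other probe sets on the array, and GCRMA compresses dim probe sets toward a common background.

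Of 31042 probe sets that were not controls, the platform annotation gave 20826 a single symbol, 436 several and 9780 none, and 20758 gene numbers matched RefSeq (GRCr8). The 50% with the highest mean over all rats were kept (15521 with Drd1, mean at least 3.99). Each gene was represented by its probe set of highest mean, which gave 8482 genes.

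Members, limits and the 30 gene lists were chosen with earlier results of these data known. Expression was described without a test, since Drd1 formed the groups. Behaviour scores were compared by two-sided exact permutation of the difference in means (SciPy 1.17.1) with Benjamini-Hochberg adjustment over 4 scores. The limma 3.58.1 fit (lmFit and eBayes, R 4.3.3) was used as an alternative count. The counting was tested on simulated data. The rats are separate animals with 1 array each, and their number limits the precision.

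Named genes were the 12 of largest positive and the 12 of largest negative difference among those whose groups did not overlap, Drd2, Rarb, Penk and Ppp1r1b, up to 4 members of largest absolute difference in each list, and a panel of Pdyn, Tac1, Adora2a, Pde10a, Rgs9, Foxp1, Meis2, Mbp, Mag, Gad1, Gfap, Col1a2, Fos, Arc, Egr1, Th and Chat. Not all are discussed, and a further panel gene is not reported here. The alternatives were other filters on low values, further normalisation, a larger difference, limma and a split of all 10 rats. Leaving out rats and averaging a gene's tested probe sets were the others.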

Additional observations from a re-analysis of the deposited data

Results flagged for a closer look

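Within the 5 low-Drd1 rats, 79 genes and scores of the text were examined for 1 rat far from the other 4, and 7 had one. Chance flags about 1 in 20. Groups of 3, such as the high-Drd1 rats, are not examined this way. Drd2 was 4.71 in rat 3, against 4.05 to 4.13 in the other low-Drd1 rats. Ppp1r1b was 9.63 in rat 6, against 9.17 to 9.27, and Kcnip2 was 8.59 in rat 6, against 8.21 to 8.32. Homer1 was 11.87 in rat 2, against 11.66 to 11.70. Rxrg was 4.65 in rat 2, against 5.06 to 5.21. Eya1 was 7.38 in rat 3, against 7.73 to 7.79, and Nars2 was 4.40 in rat 9, against 4.92 to 5.06. In Drd2, Ppp1r1b, Kcnip2 and Rxrg the distant rat was still below every high-Drd1 rat, and in Nars2 and Homer1 it was still above every one.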

How the results depend on the processing

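The counts were 81 higher and 385 lower probe sets and 52 higher and 17 lower genes. They became 36, 125, 22 and 9 in the upper 25% of probe sets by mean, 16, 151, 12 and 1 with a difference of at least 1 log2, and 29, 190, 20 and 10 with all 10 rats split midway between the limits. With limma's adjusted p under 0.05 they were 13, 35, 8 and 3 (16 higher and 36 lower probe sets at any size, and 695 and 1095 at an unadjusted p under 0.05). Because Drd1 formed the groups, these limma counts are descriptive. Without rats 3 and 9, the rats of highest Col1a2, 39 genes were lower. The upper 25% setting held fewer probe sets, the midway split held more rats, and leaving out rats 3 and 9 held fewer. With fewer rats, the rule that the groups lie apart is easier to meet. The cause of these moves was not tested further.

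Leaving out each rat in turn gave 78 to 159 higher and 346 to 505 lower probe sets, and 51 to 103 higher and 13 to 34 lower genes. Of the 52 higher genes, 39 to 52 still counted, the fewest without rat 7, and of the 17 lower genes 13 to 17. The behaviour differences ranged from −12.8 to 203 for startle, −1430 to 2854 for locomotion, −0.115 to 0.385 for sugar feeding and 6.25 to 16.2 for prepulse inhibition. Startle changed sign without rat 7 (−12.8), locomotion without rat 4 (−1430) and sugar feeding without rat 7 (−0.115) or rat 9 (−0.0375). After quantile normalisation, 79 of the 81 higher and 345 of the 385 lower probe sets still counted. No paired analysis was possible because a rat belonged to 1 group and was hybridised to 1 array. Genes near background, such as Drd2 in low-Drd1 rats, have differences limited by that background.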
